A study of Mus musculus with 4 samples.

Results

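Genes of the BMP and TGF-beta pathway were examined for H3K27ac, the acetylation of histone H3 lysine 27 that marks active promoters and enhancers. The 40 genes were chosen by name, out of 21627 protein-coding genes on chromosomes 1 to 19 and X. For each gene, the authors' peaks were counted that overlapped its RefSeq body on mm10, extended by 10 kb on both sides. These windows held 255 of 91557 peaks in the Smchd1-deleted list and 172 of 63613 peaks in the Smchd1-control list, called deleted peaks and control peaks below. A peak was shared when it overlapped one of the other list, and otherwise deleted-only or control-only. Of the 40 genes, 11 encode ligands, 6 extracellular regulators, 11 receptors or a decoy receptor, 8 Smad proteins and 4 intracellular inhibitors.

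BMPs, TGF-betas, activins and their relatives are secreted ligands that bring type I and type II receptor kinases together. The receptors phosphorylate receptor Smads, which join Smad4 and enter the nucleus to regulate target genes, while inhibitory Smads, Smurf ubiquitin ligases and the corepressors Ski and SnoN (Skil) hold the signal back. In the developing forebrain, BMPs pattern the dorsal midline and favour astrocyte over neuron formation, and TGF-beta ligands can restrain progenitor division.

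The cells were female mouse neural stem cells grown from E14.5 embryos with 1 deleted and 1 floxed Smchd1 allele. Smchd1 is a chromatin protein known for its part in silencing the inactive X chromosome. Smchd1 del/del cells had been transduced with MSCV-Cre-puro, a retrovirus carrying Cre, given puromycin after 24 h and harvested 7 days after transduction. Control cells came from the same kind of lines without transduction. The titles call them fl/fl, and the genotype field of the control ChIP gives del/fl. Cells of both groups had a maternal X of 129 origin with the Xist deltaA allele and a paternal Castaneus X. Deletion, transduction and selection cannot be told apart here. The antibody field of both ChIP libraries names H3K27me3, the control input's genotype field reads del/del and the strain field reads C57BL/6. Groups were taken from the titles.

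Each group had 1 ChIP library and 1 input library, so there was no replicate check, and differences between the lists have no test. The ChIP library had 54194233 filtered tags for deleted cells, against 42277672 for control cells, a ratio of 1.28. Intervals given below are exact 95% binomial intervals and cover counting error only. Of 12 neural stem cell markers, 12 had a peak in their window in both lists (64.4% of all genes) and 10 had one within 1 kb of the start in both (50.4% of all genes). Both lists had start peaks at 3 of 6 astrocyte, 2 of 6 fibroblast, 1 of 8 neuron, 1 of 6 oligodendrocyte, 1 of 6 microglia, 0 of 5 endothelial and 0 of 4 pluripotency markers.

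Most pathway genes were acetylated in both cultures. A peak in both lists was present at 31 of the 40 genes (64.4% of all genes, counted the same way over the 21627). Deleted peaks alone were present at 3 (5.48% of all genes), control peaks alone at 0 (0.869% of all genes) and no peak at 6 (29.3% of all genes). The 3 genes with deleted peaks alone were Bmp5, Chrd and Tgfbr1. The 6 without a peak were the ligand genes Bmp2, Bmp4, Bmp6 and Inhba, the BMP antagonist Nog and the inhibitory Smad6.

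The deleted list held 1.48 times as many peaks over these genes as the control list (interval 1.22 to 1.81). This ratio has to be read against the whole lists, where it was 1.44. Of the 427 peaks over the genes, 59.7% (54.9 to 64.4) were in the deleted list, beside 59.0% of all peaks. With all peaks kept, the excess over the pathway genes was thus close to that of the whole lists. The greater depth of the deleted library moved with it, and its part in these counts was not tested. Both lists were also held at the same length by −log10 q, with ties broken by fold enrichment. The deleted list then had 53.3% (48.0 to 58.5) of the pathway peaks, beside 50% by construction over all peaks. At a fold of at least 5 its share was 55.3% (45.7 to 64.6), beside 51.0% of all peaks. At −log10 q of at least 5 its share was 60.7% (54.3 to 66.9), beside 56.4%. These intervals include the values of the whole lists.

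Gene by gene, 24 of 40 had more peaks in the deleted list (44.5% of all genes), 5 had more in the control list (9.37% of all genes) and 5 had the same number above 0 (16.8% of all genes). The 5 with more control peaks were Acvr2a, Acvr2b, Bmpr1a, Ltbp3 and Skil. An excess of at least 10 deleted peaks was found at Bmpr1b, Smad3 and Smurf1, which are 3 of the 40 genes (2.08% of all genes). At least 10 peaks were counted at 9 genes in the deleted list (14.4% of all genes) and at 8 in the control list (8.63% of all genes). The pathway genes are long, with a median window of 81.4 kb against 37.3 kb over all genes, and long windows collect more peaks. Their median was 3.5 deleted and 3 control peaks, against 2 deleted and 2 control peaks over all genes. Among the 6364 genes with windows of 50 to 200 kb, a range chosen after the data were seen, the 23 pathway genes had medians of 5 deleted and 4 control peaks and all genes medians of 3 deleted and 2 control peaks. Of those 23, 15 had more deleted peaks (55.1% of such genes), 3 more control peaks (10.2% of such genes) and 2 an excess of at least 10 deleted peaks (3.61% of such genes). Peaks of both lists were present at 19 of the 23 (77.1% of such genes), deleted peaks alone at 2 (6.07% of such genes) and none at 2 (16.2% of such genes).

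**Figure D1:**
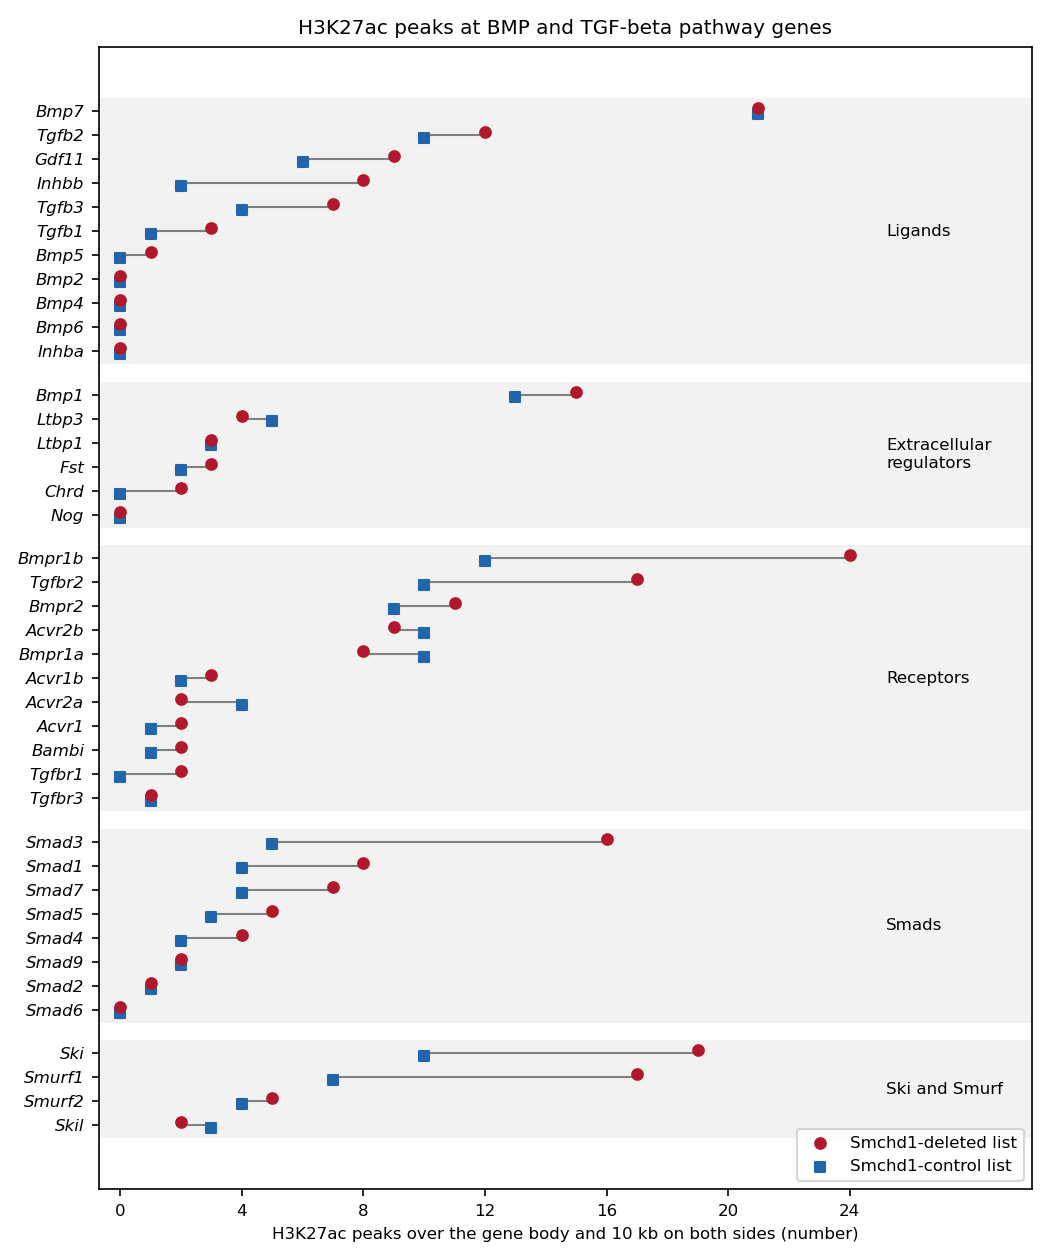
Number of H3K27ac peaks over each pathway gene body and 10 kb on both sides, in the Smchd1-deleted list (red circles) and the Smchd1-control list (blue squares), with genes grouped by role. The longest lines are those of Bmpr1b (24 deleted and 12 control peaks), Smad3 (16 deleted, 5 control) and Smurf1 (17 deleted, 7 control), and 6 genes lie at 0 in both lists.

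Acetylation at the starts of the genes was largely common to the lists. A peak within 1 kb of the start was in both lists at 27 of 40 genes (50.4% of all genes) and in neither at 10 (43.2% of all genes). A start peak of the deleted list alone was found at 3 (5.5% of all genes), and one of the control list alone at 0 (0.892% of all genes). The start was an annotated transcription start for 28 genes, and for the 12 genes without one in the reference either end of the gene was used. The 10 genes with no peak at the start were the 6 without any peak and Bmp5, Smad2, Smad9 and Tgfb1. Smad2 had no annotated start, and both lists had a peak within 2.5 kb of one of its ends.

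Fold enrichment is the authors' own ratio of a peak to the background of its own ChIP and input run. For 85.4% of the whole deleted list and 83.9% of the whole control list that background stood at its floor, the genome-wide value. The ratio is not scaled between libraries, so it ranks peaks within a list and gives no change between lists. Ranked by the lower of their 2 start folds, the highest pathway genes were Bmpr1a, Bmpr2 and Ski. Bmpr1a had a fold enrichment of 14.8 at its start (deleted list) and 14.7 (control list). Bmpr2 had 12.6 (deleted list) and 10.7 (control list). Ski had 9.23 (deleted list) and 9.0 (control list). In the deleted list alone the start folds of Tgfbr2, Smad5, Gdf11 and Smurf2 also exceeded that of Ski. A highest fold of at least 10 was reached by 4 pathway genes in the deleted list, namely Bmpr1a, Bmpr2, Smad5 and Tgfbr2 (16.6% of all genes). In the control list it was reached by 2, Bmpr1a and Bmpr2 (12.5% of all genes). A fold of at least 5 was reached by 30 genes in the deleted list (54.2% of all genes), 25 in the control list (51.7% of all genes) and 24 in both (49.5% of all genes). For scale, the median start fold of the neural stem cell markers was 12.8 (deleted list) and 12.7 (control list), and Bmpr1a alone of the pathway genes exceeded it in both.

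**Figure D2:**
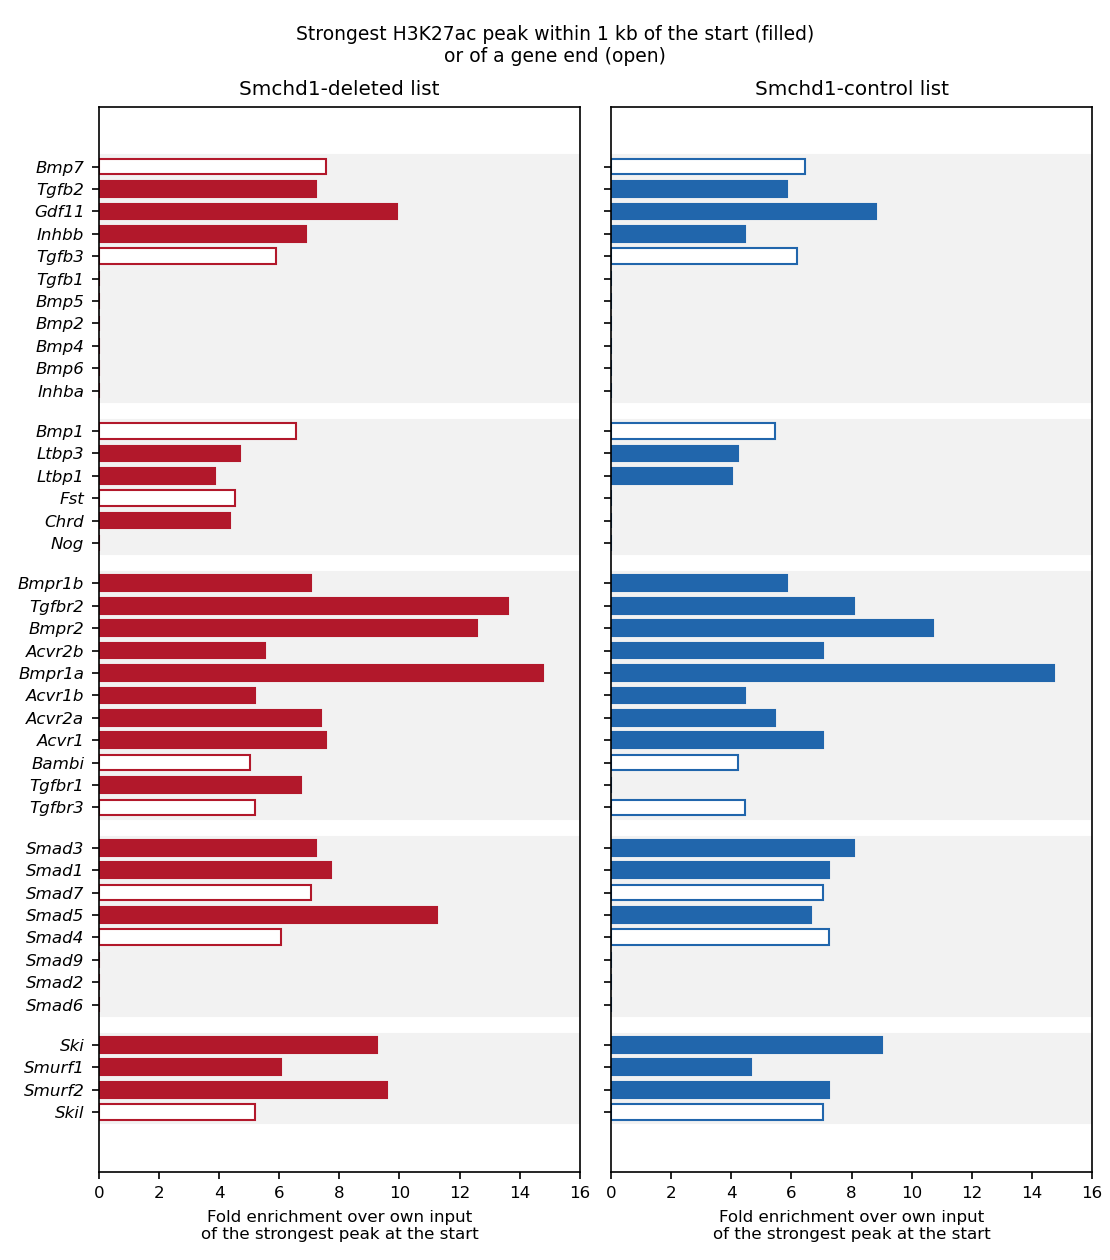
Fold enrichment of the strongest peak within 1 kb of the annotated start (filled bars) or, for genes with no annotated start, of either gene end (open bars), in the Smchd1-deleted list (left) and the Smchd1-control list (right). Each value is relative to the background of its own ChIP and input run, called own input on the axis. Bars are missing on both sides for 10 genes and on the control side alone for Chrd, Fst and Tgfbr1.

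The promoter sequences below show which starts these are. First come the 2 genes with only deleted peaks within 1 kb of an annotated start. Then come the 3 with the highest lower start fold of the 2 lists, then 2 with no peak. Added after their values were seen were Smad6, which has no peak but a Smad palindrome, and a Bmpr1b start inside the gene that lay under a peak in both lists. Each runs 5′ to 3′ from 250 bases before to 50 bases after a RefSeq start (build GRCm38.p6). Capitals mark, on either strand, GTCTAGAC, the palindrome bound by Smad3 and Smad4, and GGCGCC and GGAGCC, GC-rich motifs bound by Smads.
Tgfbr1: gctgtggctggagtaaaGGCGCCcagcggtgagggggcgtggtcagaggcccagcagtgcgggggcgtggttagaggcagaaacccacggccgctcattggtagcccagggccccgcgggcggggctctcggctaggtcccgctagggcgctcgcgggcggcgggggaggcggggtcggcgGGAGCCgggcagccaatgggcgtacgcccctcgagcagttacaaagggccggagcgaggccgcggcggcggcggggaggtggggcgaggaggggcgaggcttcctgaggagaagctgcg
Chrd: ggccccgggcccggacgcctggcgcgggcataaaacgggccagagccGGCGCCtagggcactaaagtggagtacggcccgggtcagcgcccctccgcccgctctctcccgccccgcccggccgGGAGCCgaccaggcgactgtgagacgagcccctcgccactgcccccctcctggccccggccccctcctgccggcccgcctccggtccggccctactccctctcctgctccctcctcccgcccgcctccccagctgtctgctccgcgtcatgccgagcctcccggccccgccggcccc
Bmpr1a: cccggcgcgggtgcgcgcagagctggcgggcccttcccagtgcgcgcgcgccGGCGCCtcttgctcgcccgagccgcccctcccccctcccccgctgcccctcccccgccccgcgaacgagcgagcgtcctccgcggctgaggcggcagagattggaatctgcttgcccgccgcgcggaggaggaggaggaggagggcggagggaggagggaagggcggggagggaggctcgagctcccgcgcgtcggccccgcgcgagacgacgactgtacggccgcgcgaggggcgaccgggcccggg
Bmpr2: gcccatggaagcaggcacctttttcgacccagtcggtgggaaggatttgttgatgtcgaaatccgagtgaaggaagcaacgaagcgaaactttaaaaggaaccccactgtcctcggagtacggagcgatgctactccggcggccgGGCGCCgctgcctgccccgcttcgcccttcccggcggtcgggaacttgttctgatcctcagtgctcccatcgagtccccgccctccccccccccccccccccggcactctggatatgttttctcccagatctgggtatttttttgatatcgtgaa
Ski: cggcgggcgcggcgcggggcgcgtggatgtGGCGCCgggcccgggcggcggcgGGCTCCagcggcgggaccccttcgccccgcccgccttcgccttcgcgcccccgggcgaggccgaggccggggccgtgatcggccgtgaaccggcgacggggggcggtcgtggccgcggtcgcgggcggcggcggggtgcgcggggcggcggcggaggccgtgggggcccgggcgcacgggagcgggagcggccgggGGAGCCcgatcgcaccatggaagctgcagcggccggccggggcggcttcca
Bmp4: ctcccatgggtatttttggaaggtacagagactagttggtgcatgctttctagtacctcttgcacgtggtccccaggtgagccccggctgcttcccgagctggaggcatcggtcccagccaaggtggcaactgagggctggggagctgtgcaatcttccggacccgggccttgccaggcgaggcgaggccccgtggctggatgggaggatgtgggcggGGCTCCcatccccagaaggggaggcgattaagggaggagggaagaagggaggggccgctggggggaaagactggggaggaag
Bmp6: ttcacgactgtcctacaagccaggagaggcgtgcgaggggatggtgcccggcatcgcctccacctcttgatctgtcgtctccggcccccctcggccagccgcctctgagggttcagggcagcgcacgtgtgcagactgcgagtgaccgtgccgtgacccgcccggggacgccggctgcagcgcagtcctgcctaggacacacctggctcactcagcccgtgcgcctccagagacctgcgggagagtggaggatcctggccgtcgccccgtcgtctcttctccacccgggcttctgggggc
Smad6: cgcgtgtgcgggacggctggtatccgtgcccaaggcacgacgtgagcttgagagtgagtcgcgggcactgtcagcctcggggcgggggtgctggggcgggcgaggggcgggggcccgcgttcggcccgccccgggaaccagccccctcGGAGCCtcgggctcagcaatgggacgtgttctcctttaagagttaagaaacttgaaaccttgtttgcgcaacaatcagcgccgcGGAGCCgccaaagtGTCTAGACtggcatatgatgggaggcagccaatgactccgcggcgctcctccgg
Bmpr1b: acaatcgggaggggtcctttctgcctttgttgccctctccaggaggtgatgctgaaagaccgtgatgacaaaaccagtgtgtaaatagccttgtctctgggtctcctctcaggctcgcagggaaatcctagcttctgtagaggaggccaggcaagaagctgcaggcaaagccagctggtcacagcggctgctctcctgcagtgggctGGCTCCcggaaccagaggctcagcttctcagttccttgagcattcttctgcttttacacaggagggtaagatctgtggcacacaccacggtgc

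These windows lie at chr4:47352972-47353271 (Tgfbr1, plus strand), chr16:20732877-20733176 (Chrd, plus strand), chr14:34502497-34502796 (Bmpr1a, minus strand), chr1:59764029-59764328 (Bmpr2, plus strand), chr4:155222486-155222785 (Ski, minus strand), chr14:46390620-46390919 (Bmp4, minus strand), chr13:38345466-38345765 (Bmp6, plus strand), chr9:64022010-64022309 (Smad6, minus strand) and chr3:141931371-141931670 (Bmpr1b, minus strand). A start peak within 1 kb need not cover the printed window. Those of Tgfbr1, Chrd and Bmpr1a overlapped no peak of either list. That of Bmpr2 overlapped a deleted peak of 9.57 and no control peak. The Tgfbr1, Chrd and Ski promoters were GC-rich and held GGCGCC and GGAGCC. The Bmpr1b start held 6 CpG dinucleotides, against 34 at Tgfbr1 and 59 at Ski. Over the 34 annotated promoters of 28 pathway genes, the median number of CpG was 28.5, against 13 over 21044 promoters of all genes with an annotated start. Promoters were also classed by gene, so that every annotated promoter of a gene took the class of all its starts together. The 7 promoters of pathway genes with no start peak in either list had a median of 27. The 24 promoters of pathway genes with a start peak in both lists had a median of 29. Lack of a start peak was thus not lack of CpG. Over all genes, classed in the same way, these medians were 4 without and 21 with start peaks in both.

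Promoters of the same gene were counted separately even where their windows overlapped, as some at Smad5 and Bmpr1b did. GGCGCC was present in 10 of 34 pathway promoters (29.4%), against 15.5% of all promoters. Both overlapping Smad5 windows are among those 10. GGAGCC was present in 20 of 34 (58.8%), against 35.2%. GTCTAGAC was found in 1 of 34 (2.94%), that of Smad6, against 48 of 21044 (0.228%). By their letters these motifs cannot overlap one another, and GC content moves with both GC-rich motifs, with medians of 66.7% in pathway promoters and 56.7% in all promoters. A match is a run of letters and does not show that a Smad binds there.

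At Tgfbr1, the type I receptor kinase for TGF-beta (chromosome 4, 47353222 to 47414926), 2 deleted-only peaks stood on either side of the printed start. The first ran from 47352427 to 47352930 with a fold of 5.54 and a pileup of 32, and the second from 47353625 to 47354185 with a fold of 6.72 and a pileup of 39. The printed window itself lay in the gap between them. These folds are the fourth and the first in rank among the 136 deleted-only peaks over pathway genes. The nearest control peak was 59.1 kb from the gene. Tgfbr1 had 2 deleted and 0 control peaks when windows were set to 2.5 or 25 kb, at a fold of at least 5, at −log10 q of at least 5 and with lists of equal length. With the gene body alone it had 1 deleted and 0 control peaks. Both peaks lie at the end of or inside the neighbouring gene model Gm32435 and cannot be assigned to one of the 2 genes, so that leaving out peaks at other genes left none.

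Chrd, which encodes the BMP antagonist chordin (chromosome 16, 20731425 to 20742384), had 2 deleted-only peaks. The stronger had a fold of 4.37 and its summit lay 136 bases after the start, inside the body of the neighbour Thpo. The other had a fold of 3.19. The nearest control peak was 13.4 kb away, and with windows of 25 kb Chrd had 11 deleted and 6 control peaks. Fst, which encodes follistatin, an activin-binding protein, had a deleted-only peak of 4.53 at one end of the gene. The control list had none within 1 kb of its ends, but both lists had one within 2.5 kb. At a fold of at least 5, neither Chrd nor Fst had a start peak in any list.

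**Figure D3:**
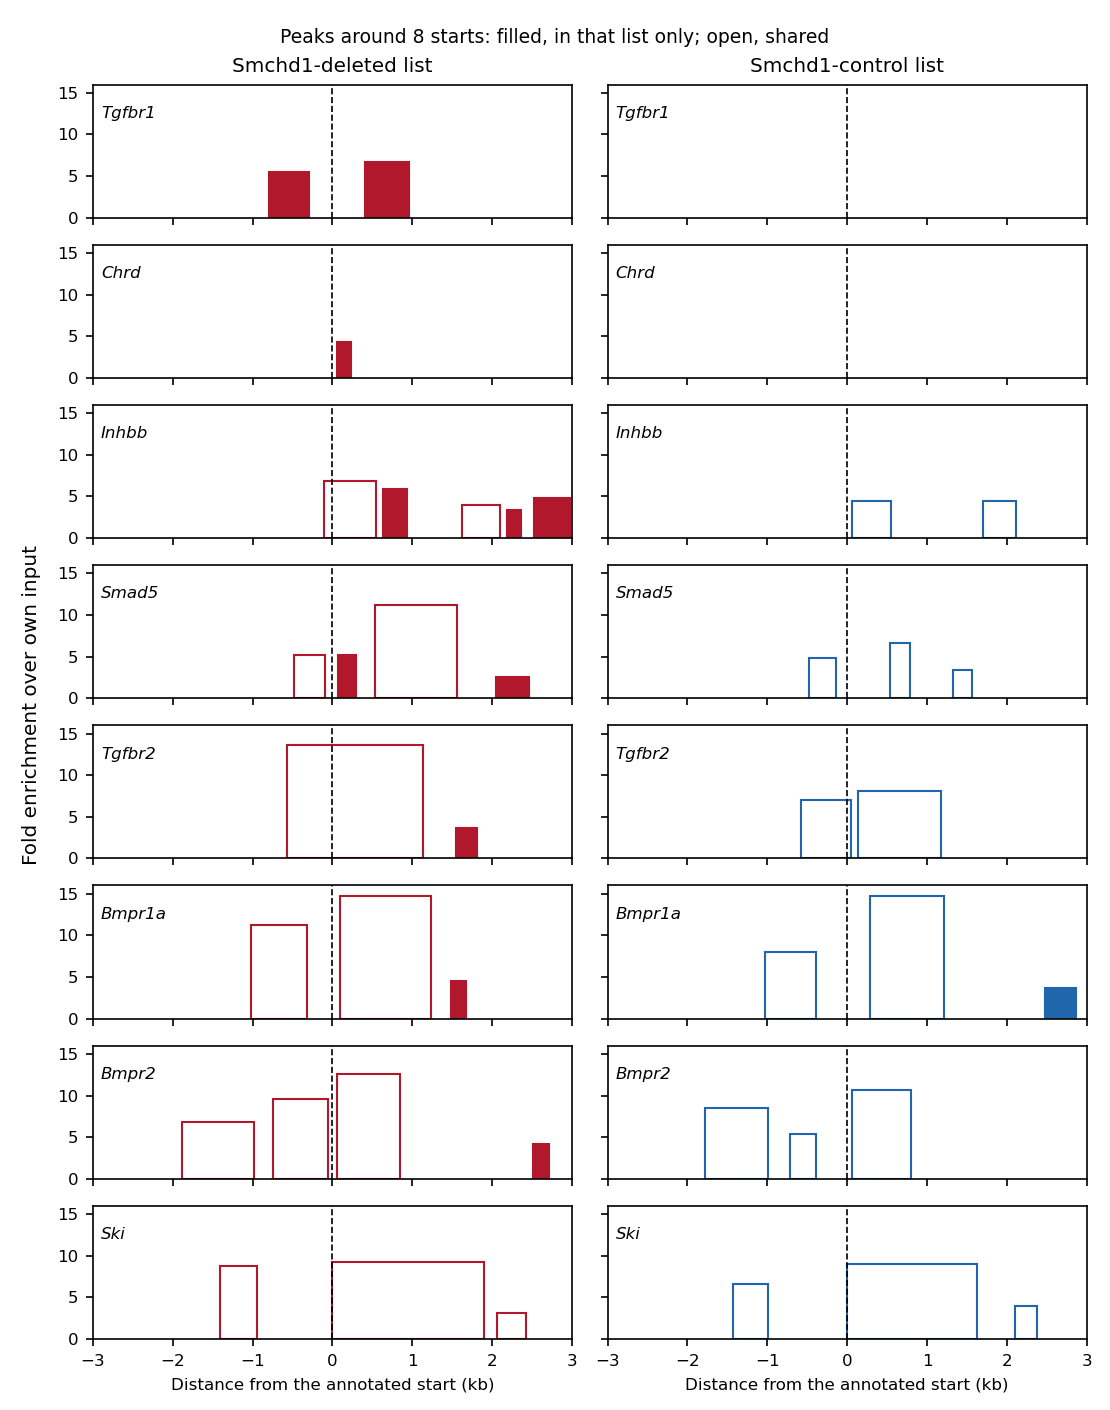
Peaks within 3 kb of the most upstream annotated start (dashed line, transcription to the right) of 8 pathway genes, in the Smchd1-deleted list (left) and the Smchd1-control list (right). Width is peak length, and height is fold enrichment over the background of the own run, called own input on the axis. Filled bars overlap no peak of the other list and open bars do. Tgfbr1 and Chrd have peaks on the left only, and Bmpr1a, Bmpr2 and Ski have open bars in both columns.

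Of the ligand genes, 6 had peaks in both lists and 4 in neither. Over the 11 genes there were 61 deleted and 44 control peaks. Bmp7, a BMP of the dorsal forebrain (chromosome 2, 172868012 to 172940321), had 21 deleted and 21 control peaks, the most of any pathway gene in the control list. Equal counts did not mean equal peaks: 11 deleted and 6 control peaks overlapped none of the other list. With lists of equal length Bmp7 had 13 deleted and 21 control peaks, of which 6 deleted and 9 control ones were not shared, and at a fold of at least 5 it had 2 deleted and 5 control peaks. Towards one end of the gene, a deleted peak of 3632 bases covered 4 control peaks, and another of 2628 bases covered 3. Peak length summed to 11.8 kb (deleted list) and 8.83 kb (control list). The strongest peak of each list lay inside or at the end of the neighbouring gene model Gm40010. With peaks at other genes left out, Bmp7 had 11 deleted and 8 control peaks, with highest folds of 3.86 (deleted) and 4.24 (control). Its control count was then below the 12 of Bmpr1b.

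Tgfb2 had 12 deleted and 10 control peaks, with start folds of 7.22 (deleted) and 5.85 (control). It also held the single control-only peak over a pathway gene with a fold of at least 5, at 5.04 (chromosome 1, 186654338 to 186654674). Gdf11, which restrains neuron formation in the mouse olfactory epithelium, had 9 deleted and 6 control peaks, with highest folds of 9.91 (deleted) and 8.80 (control). Inhbb, the activin beta-B subunit, had 8 deleted and 2 control peaks, and both control peaks were shared. One of its deleted-only peaks, at 5.88, lay beyond the shared start peak. Tgfb3 had 7 deleted and 4 control peaks.

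The other ligand genes had little. Tgfb1 had no start peak, and its highest fold, 5.33 (deleted list) and 7.17 (control list), belonged to a peak at the end of the neighbour B9d2. Bmp5 had 1 deleted-only peak, with a fold of 3.36, inside the gene and 112 kb from its start. Among the ligand genes without peaks, the distance to the nearest peak varied widely. For Bmp2 it was 672 kb in both lists. For Bmp4 it was 299 kb (deleted list) and 370 kb (control list), and for Inhba 155 kb (deleted list) and 540 kb (control list). For Bmp6 it was 27 kb in both lists. Bmp2, Bmp4, Bmp6, Inhba and Nog had no peak under any setting tried.

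Extracellular regulators had 27 deleted and 23 control peaks. Bmp1, a protease that cleaves chordin and procollagens, carried most of them, with 15 (deleted list) and 13 (control list). Ltbp1 and Ltbp3 encode proteins that store latent TGF-beta in the matrix. Ltbp1 had 3 peaks in each list, though its body spans 387 kb. Ltbp3 had 4 deleted and 5 control peaks, with highest folds of 6.88 (deleted) and 9.28 (control) at the same place, where 1 deleted peak covered 2 control peaks. For Nog, which encodes the BMP antagonist noggin, the nearest peak was 240 kb away in both lists.

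All 11 receptor genes had a peak in at least 1 list, with 81 deleted and 60 control peaks. Bmpr1b, a type I BMP receptor (chromosome 3, 141837135 to 142169585), had the most peaks of any pathway gene in the deleted list, 24, against 12 in the control list. Of these, 21 (deleted list) and 11 (control list) lay over 200 kb into its 332 kb body. All 12 control peaks were shared, while 13 deleted peaks were not. At a fold of at least 5, Bmpr1b had 5 deleted and 4 control peaks, with 1 deleted-only and 1 control-only among them. Of its 3 annotated starts, all inside the body, the group of peaks surrounded all but 1. At those starts the strongest peak had a fold of 7.05 (deleted list) and 5.85 (control list). The promoter window of the remaining start, 141982215 to 141982514, overlapped no peak of either list. The upstream end of the gene body, which is not among the annotated starts, also had a peak in both lists, of 7.05 (deleted) and 6.05 (control).

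Tgfbr2, the type II receptor for TGF-beta (chromosome 9, 116087695 to 116175363), had 17 deleted and 10 control peaks. At its start the fold was 13.6 in the deleted list, higher than 99.5% of that list, and 8.07 in the control list, higher than 92.1% of that list. The deleted start peak, 1711 bases long, covered 2 control peaks. In both lists the strongest start peak lay within 1 kb of an end of the neighbouring gene model Gm40582. With peaks at other genes left out, the highest folds of Tgfbr2 were 4.40 (deleted) and 4.04 (control). Inside the gene 12 deleted-only peaks had folds of 2.85 to 4.40 and 4 control-only peaks had folds of 3.0 to 4.04. At a fold of at least 5, Tgfbr2 had 2 deleted and 2 control peaks. Both lists thus had weak peaks of their own in the same gene.

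The BMP receptor genes Bmpr1a and Bmpr2 differed little in number. Bmpr1a (chromosome 14, 34411061 to 34503336) had 8 deleted and 10 control peaks, of which 4 deleted and 5 control peaks were not shared. Bmpr2 (chromosome 1, 59764279 to 59878081) had 11 deleted and 9 control peaks. Of the activin receptor genes, Acvr2a had 2 deleted and 4 control peaks. There 1 deleted peak of 1480 bases just after the start covered 2 control peaks, and 1 control peak was not shared. Acvr2b had 9 deleted and 10 control peaks, and its strongest, at 8.90 (deleted) and 8.88 (control), lay at the end of the neighbour Exog. Acvr1, Acvr1b and the decoy receptor Bambi had 1 more peak in the deleted list each. The strongest Acvr1 peak of each list lay at the end of the neighbour Upp2, and leaving out peaks at other genes left none at Acvr1. Tgfbr3, the co-receptor betaglycan, had 1 peak in each list, and these overlapped.

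Of the 5 roles, Smad genes had the largest ratio of deleted to control peaks, 43 deleted and 21 control, a ratio of 2.05. The deleted share was 67.2% (54.3 to 78.4), an interval that includes the 59.0% of the whole lists. Smad3, which carries the TGF-beta and activin signal (chromosome 9, 63646766 to 63757994), had the largest difference among them, with 16 deleted and 5 control peaks. Its start peak ranked high in both lists, with folds of 7.22 (deleted) and 8.07 (control). The 13 deleted-only peaks were all inside the body, 3.01 to 79.5 kb from the start, with folds of 2.69 to 4.53. The 2 control-only peaks, with folds of 3.4 and 3.83, were also inside the body. Peak length summed to 7.24 kb (deleted list) and 1.92 kb (control list).

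The count at Smad3 rested mostly on weak peaks. At a fold of at least 5 Smad3 had 2 deleted peaks and 1 control peak, and with lists of equal length it had 9 deleted and 5 control peaks. Smad1, a BMP receptor Smad, had 8 deleted and 4 control peaks, all 4 shared. Smad5, another BMP receptor Smad (chromosome 13, 56703010 to 56742378), had 5 deleted and 3 control peaks. Its strongest fold was 11.2 in the deleted list, higher than 98.3% of that list, and 6.66 in the control list, higher than 85.6% of that list. One deleted peak of 1034 bases there covered 2 control peaks, and a deleted-only peak of 5.21 lay beside it.

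Smad4, the shared partner of receptor Smads, had 4 deleted and 2 control peaks. Smad7, an inhibitory Smad induced by TGF-beta, had 7 deleted and 4 control peaks, with highest folds of 7.05 (deleted) and 7.06 (control). Smad2 had 1 peak in each list, inside the gene, and Smad9 had 2 in each, all at the end of the neighbour Rfxap and none at its own start. Smad6, the inhibitory Smad of the BMP branch, had no peak, and its nearest peak was 11.0 kb away in both lists, so that windows of 25 kb held 2 deleted and 1 control peak.

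The intracellular inhibitors had 43 deleted and 24 control peaks, a ratio of 1.79, beside 1.44 in the whole lists. Their deleted share was 64.2% (51.5 to 75.5), an interval that also includes the 59.0% of the whole lists. Ski (chromosome 4, 155154075 to 155222535) had 19 deleted and 10 control peaks. Of its 12 deleted-only peaks, 9 lay in the body, and the strongest of them, at 5.88, was 43.7 kb from the start. Smurf1, a ligase that marks Smads and receptors for degradation (chromosome 5, 144876495 to 144965899), had 17 deleted and 7 control peaks. Of its 12 deleted-only peaks, 10 lay in the body, with folds of 2.5 to 4.87 over all 12. At a fold of at least 5, Smurf1 had 1 deleted and 1 control peak. Smurf2 had 5 deleted and 4 control peaks, with highest folds of 9.57 (deleted) and 7.26 (control). Skil had 2 deleted and 3 control peaks, all shared.

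**Figure D4:**
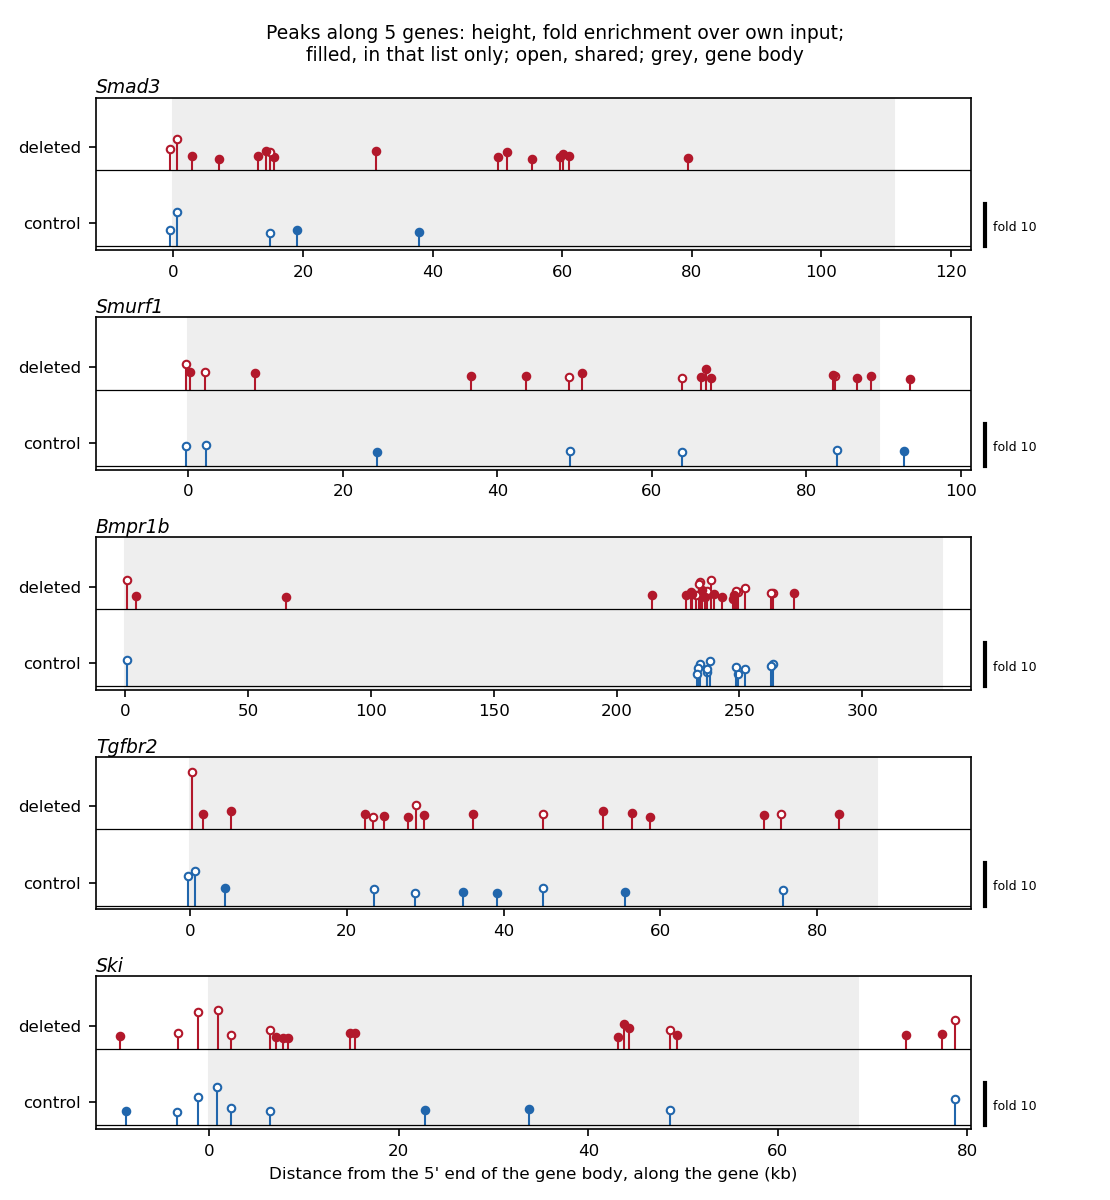
Peaks along Smad3, Smurf1, Bmpr1b, Tgfbr2 and Ski by distance from the 5′ end of the gene body (grey), with the Smchd1-deleted list above the Smchd1-control list in each panel. Stem height is fold enrichment over the background of the own run, called own input in the title, to the scale bar at the right. Filled heads overlap no peak of the other list and open heads do. Tall stems stand at the starts in both lists, and the 13 deleted-only peaks of Smad3 are short and spread through the body.

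List-only peaks, those not shared, were mostly weak and mostly inside gene bodies. In the deleted list 136 of 255 pathway peaks (53.3%, interval 47.0 to 59.6) overlapped no control peak, beside 50.6% of the whole list. In the control list 42 of 172 (24.4%, 18.2 to 31.5) overlapped no deleted peak, beside 24.3% of the whole list. When sharing needed an overlap of at least 50% of the shorter peak, the deleted-only percentage was 54.9%, beside 54.4% of the whole list. Under stricter limits and with lists of equal length, the deleted-only percentage stood further from that of the whole list. At a fold of at least 5 it was 33.3% (21.95 to 46.34), beside 26.9%. At −log10 q of at least 5 it was 51.3% (43.0 to 59.6), beside 41.3%, and with lists of equal length 45.9% (38.8 to 53.2), beside 38.3%. At least 1 deleted-only peak was found at 29 genes (55.1% of all genes) and at least 1 control-only peak at 17 (33% of all genes). The median fold was 3.36 for deleted-only and 4.87 for shared peaks of the deleted list, and 3.57 for control-only and 4.43 for shared peaks of the control list. In the whole lists these medians were 3.19 for deleted-only and 4.53 for shared deleted peaks, and 3.43 for control-only and 4.44 for shared control peaks. A fold of at least 5 was reached by 5 of 136 deleted-only peaks, at Tgfbr1, Inhbb, Ski, Tgfbr1 again and Smad5, and by 1 of 42 control-only peaks, at Tgfb2. In the whole lists it was reached by 1.72% of deleted-only and 1.52% of control-only peaks.

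By place, peaks at starts here include those at either end of genes with no annotated start. They were list-only in 14 of 60 cases (23.3%, interval 13.4 to 36.0) among deleted peaks and in 0 of 50 among control peaks, which allows up to 7.11%. At annotated starts alone, 11 of 43 deleted peaks were list-only and all 34 control peaks were shared. Within gene bodies 103 of 160 deleted peaks (64.4%, 56.4 to 71.8) and 33 of 97 control peaks (34.0%, 24.7 to 44.3) were list-only. In the 10 kb flanks, 19 of 35 deleted and 9 of 25 control peaks were. The whole lists showed the same order, with 19.8% of deleted and 5.12% of control peaks list-only within 1 kb of an annotated start, and 57.3% of deleted and 30% of control peaks elsewhere. Of the pathway peaks, 52 of 255 deleted and 42 of 172 control ones lay at the end of, or inside, another gene.

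**Figure D5:**
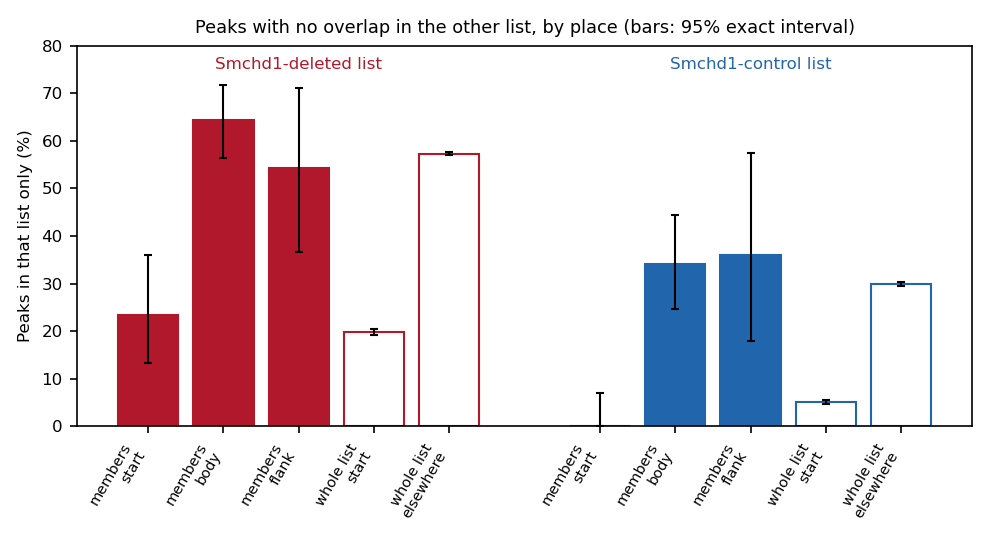
Percentage of peaks that overlap no peak of the other list, for the Smchd1-deleted list (red, left) and the Smchd1-control list (blue, right), at starts, in bodies and in 10 kb flanks of the pathway genes (filled, called members on the axis) and in the whole lists (open). Error bars are exact 95% binomial intervals. Bars at starts are lower than those elsewhere in each list, 23.3% (deleted) and 0% (control) for the pathway genes. For pathway genes with no annotated start, either gene end counts as a start, while the whole lists use annotated starts only.

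A further 76 genes of the pathway, listed beside the 40, had 313 deleted and 194 control peaks. Of these genes 46 had a peak in both lists (64.4% of all genes), 8 had deleted peaks alone (5.48% of all genes), 0 had control peaks alone (0.869% of all genes) and 22 had none (29.3% of all genes). More deleted peaks were found at 44 of the 76 (44.5% of all genes) and more control peaks at 3 (9.37% of all genes). The 8 with deleted peaks only were the ligand genes Bmp8b and Inhbe, the receptor genes Acvrl1 and Tdgf1, and the antagonist genes Fstl3, Fstl4, Chrdl1 and Cer1. Their folds were at most 4.20, the value of Fstl3, and Fstl4 had 6 such peaks.

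By group, both lists had a peak at 10 of 19 further ligand genes, 5 of 9 receptor and co-receptor genes, 12 of 22 antagonist and binder genes, 9 of 10 intracellular partner genes and 10 of 16 target genes. The strongest were shared. Id3, an inhibitor of differentiation induced by BMP, had 16 deleted and 17 control peaks, with highest folds of 14.3 (deleted) and 15.1 (control). Cdkn1a, a cell cycle inhibitor induced by TGF-beta, had 9 deleted and 5 control peaks, with highest folds of 14.4 (deleted) and 14.53 (control). Fbn2, which encodes the matrix protein fibrillin, had highest folds of 13.3 (deleted) and 12.3 (control).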

How the data were processed

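H3K27ac was measured by ChIP-seq in 1 Smchd1-deleted and 1 Smchd1-control culture, each with 1 input. The tools bcl2fastq and Bowtie 0.12.9 and the build mm10 are named, per the submitters' processing notes. Per the file headers, the authors called peaks with MACS2 2.1.0.20140616 on each ChIP with its matching input (q-value limit 0.05), using down-sampling, 80-base tags and 1 tag kept per position. The deposited lists give each peak's pileup signal, its −log10 q and its fold enrichment, a ratio to the background, as the authors' run wrote them. No column was left out. The lists held 91639 and 63698 peaks, deleted list first, of which those on chromosomes 1 to 19 and X were used.

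Peaks were assigned with Python 3.11.15, NumPy 2.4.6, pandas 2.3.3 and SciPy 1.17.1, and plotted with matplotlib 3.10.9. Gene bodies and starts came from RefSeq (GRCm38.p6, the mm10 assembly with patches). All 40 genes matched by symbol, and 28 had an annotated start. Peaks of both lists with an overlap of 1 base or more were called shared. A peak over several pathway genes would count once in sums. Counting was tested on simulated lists. Percentages of all genes refer to the same count over 21627 protein-coding genes. The genes and lists were chosen with earlier results of these data known. Named in full, by rule, were genes with the most peaks, the highest folds, the largest differences, peaks or start peaks in 1 list only, or none. A pileup of 1 tag was worth 0.168 fold units (deleted list) and 0.202 (control list), and peaks over the genome-wide background began at folds of 2.33 (deleted) and 2.6 (control).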

Additional observations from a re-analysis of the deposited data

How the results depend on the processing

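At a fold of at least 5, the genes had 63 deleted and 51 control peaks, a deleted share of 55.3% beside 51.0% of the whole lists. Of these peaks, 33.3% (deleted) and 11.8% (control) were in that list only. The whole lists had 26.9% (deleted) and 19% (control) at that limit. Peaks were then in the deleted list only at 6 genes and in the control list only at 1 (Smad2), more numerous in the deleted list at 12 and in the control list at 3, and at the start in the deleted list only at 6. Tgfb2 then had 1 peak fewer in the deleted list (a difference of -1). At −log10 q of at least 5 there were 150 deleted and 97 control peaks, a deleted share of 60.7% beside 56.4% of the whole lists, and 51.3% of deleted peaks were in that list only, beside 41.3%. With lists of equal length the deleted share was 53.3%, beside 50% by construction, and 45.9% of deleted peaks were in that list only, beside 38.3% of the whole list. With 25 kb windows, 8 genes had more control peaks. In windows of 50 to 200 kb, chosen after the data were seen, 19 genes had peaks in both lists, 2 in neither, 15 more in the deleted list and 3 more in the control list, out of fewer genes. A peak over the start base itself was in both lists at 9 genes and in neither at 28. Apart from the windows of 50 to 200 kb, these gene counts were not taken over all genes. They cannot be set beside other genes. Of the other values tried under the alternatives, 81 summary values stayed within 1.5 times the reported count or within the interval of the reported share. Of the differences in peak number at single genes, 181 stayed within 1.5 times and 98 moved further, among them Bmpr1b (12 as reported, 1 at a fold of at least 5), Smad3 (11 and 1), Smurf1 (10 and 0), Tgfbr2 (7 and 0) and Bmp7 (0, and -8 with lists of equal length). The cause was not tested, except that stricter limits leave fewer peaks. No paired analysis was possible because each group had 1 ChIP library. Depth limits what a missing peak shows: it is not a missing mark, and a difference of a few weak peaks was not resolvable with 1 library a group.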
